A study of Caenorhabditis elegans with 24 samples.

Results

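MicroRNAs of Caenorhabditis elegans embryos collected 330 min after the 4-cell stage were compared with those of embryos collected 225 min after it, a span of mid-embryogenesis that skips 1 sampled time, 270 min. The comparison uses 6 of the 24 libraries of an 8-point timecourse, 3 labelled stage 6 (330 min) and 3 labelled stage 4 (225 min), chosen by these labels alone. All were from the wild-type strain N2, cut out of adult worms and gathered with a mouth pipette, untreated, with 50 embryos pooled in each library. Each library therefore averages over all cells of the embryo, and a cell type that became more common and one that held more of a miRNA per cell cannot be told apart. Nothing in the labels says that the 3 libraries of a time came from separate cultures. The p-values of the arms measure differences against the spread between libraries of the same time, pooled over all 8 times. Part of this spread may be technical.

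Mature miRNAs are short RNA strands that are cut from either arm (5p or 3p) of an RNA hairpin and guide Argonaute proteins to messenger RNAs, mostly through the bases near their 5′ end, the seed. In the worm embryo the mir-35 family, supplied early, is needed for viability, while other miRNAs come on in particular tissues as cells take their fates, among them lsy-6 in a taste neuron. Between the times compared, gastrulation gives way to the shaping of the body and the differentiation of tissues.

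The deposited table lists raw read counts for 434 mature arms. Of these, 200 had at least 1 read in the 6 libraries, and 128 passed the filter on low counts and were tested, 4 of them with no read in the 6. The other 76 arms with reads held 483 reads together, 0.0295% of the counts. The 330 min libraries held 235647, 177101 and 530469 counts, against 197437, 88482 and 405594 at 225 min, so that 1 read stood for 1.94 to 4.18 CPM (counts scaled to library size) at 330 min and 1.93 to 9.19 CPM at 225 min, and 225 min replicate 2 gives the coarsest values. Correlations of log2(CPM + 1) over the tested arms lay between 0.875 and 0.908 among the 330 min libraries, between 0.918 and 0.957 among those of 225 min, and between 0.790 and 0.869 across the times, as a description. In no pair did the counts agree within sampling noise.

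Of the 128 tested arms, 9 were higher and 3 lower at 330 min (edgeR quasi-likelihood test, adjusted p under 0.05). This is 9.38% of the arms (7.03% higher and 2.34% lower), and 30 arms, 17 higher and 13 lower, had an unadjusted p under 0.05. The higher arms were miR-57-3p, miR-87-5p and miR-228-3p, which were already well measured at 225 min, and miR-76-3p, miR-1822-5p, miR-790-3p, miR-83-5p, lsy-6-3p and miR-789-3p, which had 1 or no read in the 225 min libraries together. The lower arms were miR-229-3p and miR-64-3p of 1 cluster and miR-36-3p of the mir-35 family. In 11 of the 12 the libraries of the times did not overlap, against 42 of all 128 arms (32.8%), and miR-790-3p was the exception. The balance of the calls depended on scaling: with DESeq2 size factors 10 arms were higher and 6 lower, and with total counts 10 were higher and 11 lower, while the median log2 fold change of all arms was 0.07 with the factors used here, 0.01 with DESeq2 size factors, but -0.11 with total counts. The 12 arms were called under both of these scalings too.

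**Figure D1:**
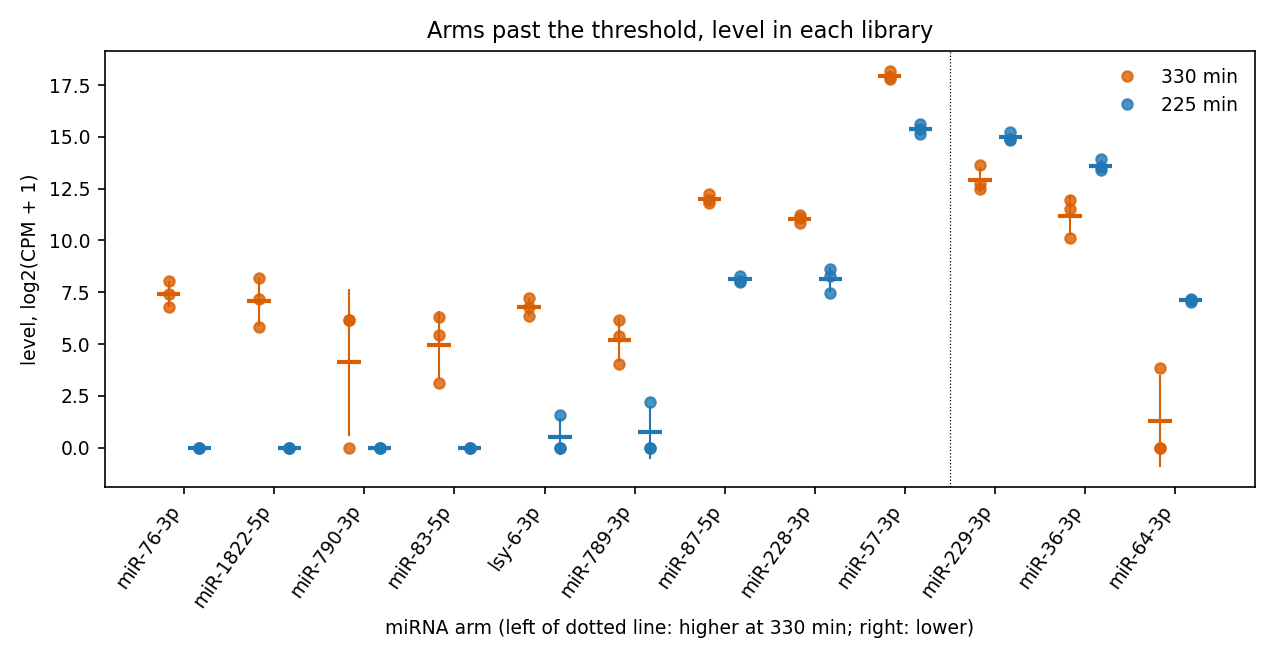
Level of the 12 arms past the threshold in each library, as log2(CPM + 1); points are libraries (orange 330 min, blue 225 min), horizontal bars the means and vertical bars the SD over 3 libraries. Arms left of the dotted line were higher at 330 min; 4 of them had no read at 225 min, and 1 of these, miR-790-3p, also had none in a 330 min library.

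**Figure D2:**
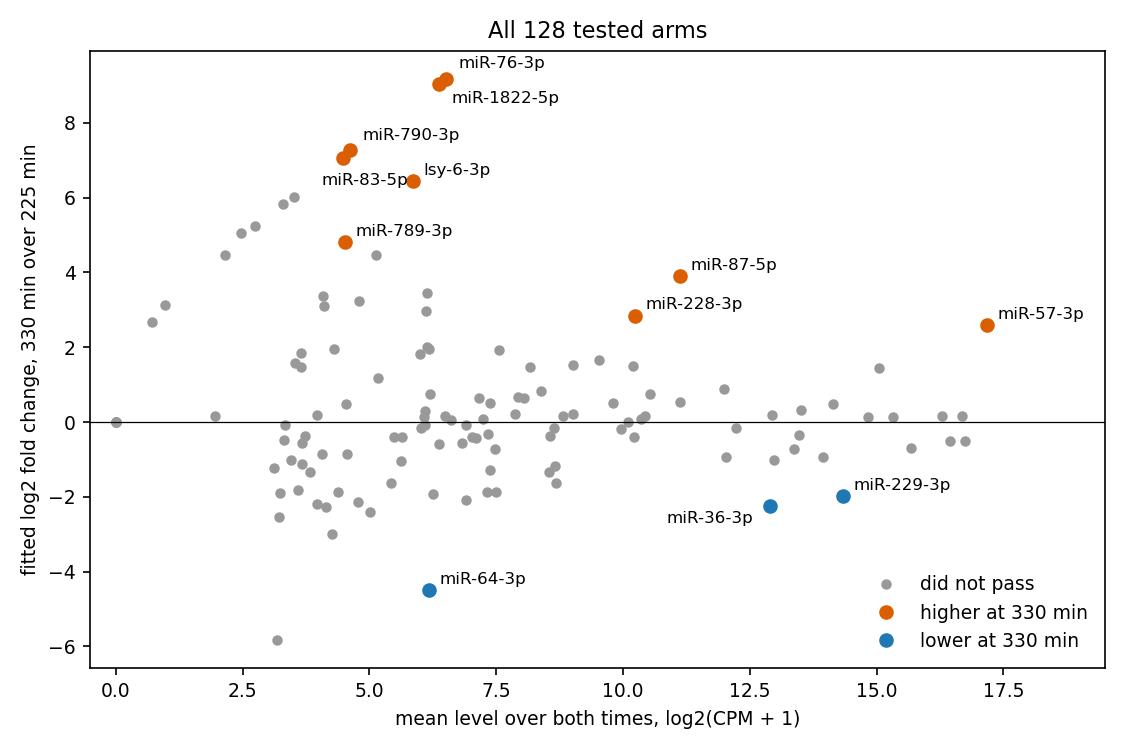
Fitted log2 fold change of 330 min over 225 min against the mean level over both times, for the 128 tested arms. The fold changes of the 9 higher arms are largest where the 225 min libraries held no read, where their size depends on the fit; miR-57-3p stands at the far right as the most abundant arm.

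The most abundant riser was miR-57-3p, whose hairpin is related to miR-10 of other animals. Its level was 225556, 239979 and 301734 CPM in the 330 min libraries, against 42555, 35955 and 49671 CPM at 225 min. Every 330 min library lay far above every 225 min library, and the log2 fold change was 2.58 ± 0.39 (SE; edgeR FDR-adjusted p 8.63e-06), a 5.99-fold rise. As a share of all counts it took 28.4% ± 4.59 at 330 min and 5.55% ± 1.00 at 225 min (n = 3 each, SD), rank 1 among all arms at 330 min and rank 6 at 225 min. The hairpin lies at chrII:7850499-7850597 of WBcel235, on the minus strand and outside protein-coding genes (Ensembl release 115; the build behind the counts is not given in the sources used here).

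miR-87-5p had the smallest unadjusted p of all tested arms. Its level was 3602, 4913 and 3995 CPM at 330 min, against 311, 257 and 265 CPM at 225 min. The libraries of each time lay close together and far from those of the other, with a log2 fold change of 3.91 ± 0.57 (SE; edgeR FDR-adjusted p 8.63e-06), a 15.0-fold rise. The opposite arm, miR-87-3p, the strand usually described for this conserved miRNA, stood at 527, 940 and 831 CPM at 330 min, against 325, 257 and 213 CPM at 225 min. These libraries did not overlap either, but with a log2 fold change of 1.53 ± 0.70 miR-87-3p did not pass the test (edgeR adjusted p 0.174). mir-87 lies in an intron of kup-1 on the same strand, at chrV:12038688-12038781.

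Both arms of mir-228, the worm relative of the miR-183 family, were higher in every 330 min library than in any of 225 min. miR-228-3p, the minor arm, was at 2188, 1834 and 2362 CPM at 330 min, against 395, 175 and 311 CPM at 225 min, with a log2 fold change of 2.85 ± 0.58 (SE; edgeR FDR-adjusted p 0.000905). The major arm, miR-228-5p, was at 38316, 44429 and 65079 CPM at 330 min, against 19412, 12714 and 22179 CPM at 225 min. Its log2 fold change of 1.44 ± 0.50 missed the threshold (edgeR adjusted p 0.0668) and passed it with DESeq2 size factors (0.0116) as well as total counts (0.0226). The hairpin lies at chrIV:5562025-5562122, outside protein-coding genes, 4299 bases before mir-790 on the same strand.

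For the other 6 higher arms the 225 min libraries were at or near 0: they held no read of 4 of them and 1 read each of lsy-6-3p and miR-789-3p. Where the 225 min sum was 0, the fold is given as at least the ratio to 3 counts summed over the libraries, and where it was 1 the ratio is given with its 95% exact interval. Both use reads summed over the libraries of a time and leave out the spread between libraries. They also treat reads as independent, which PCR copies are not.

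lsy-6 sets the left-right difference between a pair of taste neurons. lsy-6-3p had 20, 36 and 57 reads at 330 min (81.8, 150 and 110 CPM), against 0, 0 and 1 read at 225 min. Every 330 min library held 20 reads or more, and the ratio was 102 (17.9 to 4051; edgeR adjusted p 0.00301); the fitted log2 fold change was 6.43, and 8.49 without 225 min replicate 3, which held the only read. The opposite arm had no read in the 6 libraries. lsy-6 lies at chrV:10647232-10647304, outside protein-coding genes.

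miR-76-3p had 27, 41 and 134 reads at 330 min (110, 171 and 260 CPM), against 0 in each 225 min library. It was at least 60.6-fold higher (edgeR FDR-adjusted p 0.000905), the largest of these bounds. miR-1822-5p, from an intron of ZK84.2 on chromosome II, had 35, 70 and 29 reads (143, 292 and 56.2 CPM), against 0 in each 225 min library, and was at least 40.2-fold higher (edgeR FDR-adjusted p 0.00317). Its 330 min libraries spread more widely than those of miR-76-3p, with a mean of 164 ± 119 CPM for miR-1822-5p and 180 ± 75.0 CPM for miR-76-3p (n = 3 each, SD). Without 330 min replicate 2 its fitted log2 fold change was 8.33, against 9.02 with all libraries.

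The remaining 3 rested on few reads. miR-790-3p, whose hairpin neighbours mir-228, had 17, 0 and 37 reads at 330 min and 0 in each 225 min library, at least 16.2-fold higher (edgeR FDR-adjusted p 0.00989). The 330 min libraries disagreed, since replicate 2 held none. miR-83-5p, from a hairpin related to miR-29, had 19, 10 and 4 reads at 330 min and 0 in each 225 min library, at least 9.90-fold higher (edgeR FDR-adjusted p 0.0283). miR-789-3p had 10, 17 and 8 reads at 330 min, against 1, 0 and 0 at 225 min, a ratio of 31.5 (5.29 to 1279; edgeR adjusted p 0.0160). Its hairpin has 2 loci on chromosome IV, whose reads cannot be told apart.

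Each of these 3 calls was lost without some single library, the arms and scaling factors being kept. miR-83-5p lost it when 330 min replicate 1 was left out (adjusted p 0.0779), and likewise 225 min replicate 1, 2 or 3 (0.122, 0.0659 and 0.139). miR-789-3p lost it when 330 min replicate 2 (0.0668), 225 min replicate 2 (0.0535) or 225 min replicate 3 (0.139) was left out, and its fitted log2 fold change of 4.81 became 7.07 without 225 min replicate 1, which held the only read. miR-790-3p lost it without 225 min replicate 3 (0.0845) and with DESeq2 (0.0586). The other 9 arms kept their calls without any 1 of the 6 libraries. With only the 6 libraries these 9 were also called. There miR-83-5p, miR-789-3p and miR-790-3p did not pass the filter on low counts and were not tested. Their calls thus came only from fits that held libraries of other times. Without the filter on low counts, miR-789-3p and miR-790-3p kept the call and miR-83-5p lost it.

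The 3 lower arms came from the cluster of mir-229 and mir-64 to mir-66 and from the mir-35 family, both abundant in the early embryo. miR-229-3p was at 12589.5, 5719 and 6702 CPM at 330 min, against 29938, 38794 and 30191 CPM at 225 min, a log2 fold change of -1.98 ± 0.41 (SE; edgeR FDR-adjusted p 0.000905). Its highest 330 min library stayed well below the lowest of 225 min. miR-64-3p, the minor arm of mir-64, had 0, 0 and 7 reads at 330 min, against 39, 15 and 68 at 225 min, or 4.52 ± 7.83 CPM and 137 ± 5.64 CPM (n = 3 each, SD). It was all but absent at 330 min, with a log2 fold change of -4.49 ± 1.02 (SE; edgeR FDR-adjusted p 0.00204), and -8.75 without 330 min replicate 3, which held all 7 reads. Both hairpins lie in introns of gcn-1 on the same strand (mir-229 at chrIII:2172452-2172566, mir-64 at chrIII:2172848-2172957).

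miR-36-3p belongs to the mir-35 family. It was at 3905, 1120 and 2976 CPM at 330 min, against 10683, 11841 and 15465 CPM at 225 min, a log2 fold change of -2.25 ± 0.49 (SE; edgeR FDR-adjusted p 0.00151). The libraries did not overlap, and the level at 225 min was 4.75-fold that at 330 min. Its hairpin lies at chrII:11537713-11537809, 8 bases from mir-35, in an intron of Y62F5A.9 on the opposite strand.

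The 10 most abundant arms together held 86.5% ± 1.41 of a 330 min library and 82.3% ± 0.698 of a 225 min library (n = 3 each, SD), and the order among them changed. The share of miR-57-3p was the larger by far at 330 min, whereas miR-64-5p (10.1% ± 2.48 at 330 min, 16.7% ± 2.43 at 225 min) and miR-65-5p (8.24% ± 2.53 and 13.7% ± 2.60) were first and second at 225 min. A share also falls where another miRNA takes up more of the counts, and on the scaled level neither arm passed the test, with log2 fold changes of -0.50 ± 0.35 and -0.51 ± 0.39 (SE; edgeR FDR-adjusted p 0.425 and 0.466). With total counts as the scaling miR-64-5p was called lower (-0.73, adjusted p 0.0226).

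The log2 fold changes of 4 abundant arms were near 0, and their sign depended on the scaling and on single libraries. The values were 0.16 ± 0.46 for miR-82-3p, 0.14 ± 0.60 for miR-81-3p, 0.15 ± 0.36 for miR-72-5p and 0.14 ± 0.43 for miR-73-3p (SE), and with total counts all 4 were below 0. Their shares at 330 and 225 min were 11.9% ± 3.47 and 12.9% ± 2.73 for miR-82-3p, 4.66% ± 1.24 and 5.03% ± 1.58 for miR-81-3p, 9.26% ± 1.12 and 9.82% ± 0.578 for miR-72-5p, and 3.29% ± 0.621 and 3.57% ± 1.04 for miR-73-3p (n = 3 each, SD). These differences were smaller than the spread between libraries. miR-44-5p took 4.41% ± 0.570 at 330 min and 8.41% ± 1.00 at 225 min. Its libraries did not overlap, yet the log2 fold change of -0.68 ± 0.34 did not pass (edgeR adjusted p 0.225), and it did with DESeq2 size factors (0.0447) or total counts (0.00511).

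**Figure D3:**
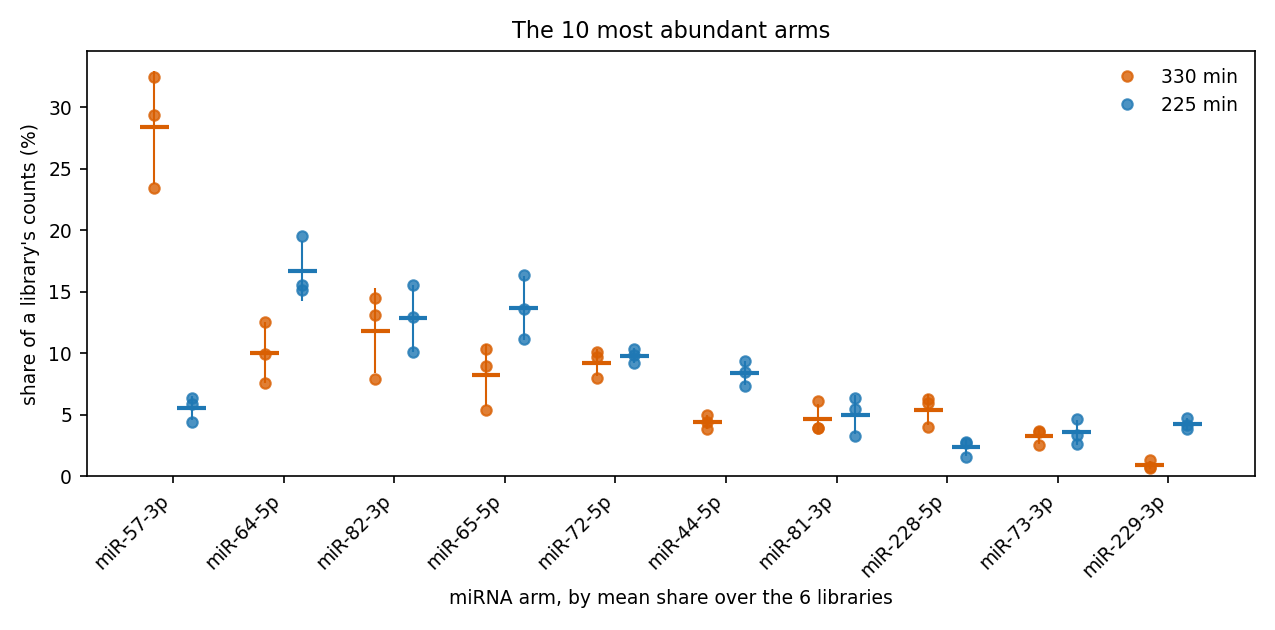
Share of each library's counts (%) taken by the 10 arms with the highest mean share over the 6 libraries; points are libraries (orange 330 min, blue 225 min), horizontal bars means and vertical bars SD (n = 3). miR-57-3p lies between 23.4% and 32.4% at 330 min, and between 4.42% and 6.34% at 225 min.

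Of the 14 tested arms of the mir-35 family, which the mother and the early embryo supply, 0 were higher, 1 was lower and 13 did not pass, beside 7.03% higher and 2.34% lower among all arms. The median log2 fold change was -1.33, beside 0.07 for all arms. The family's share, which does not depend on how reads were split between its near-identical members, was 0.650%, 0.730% and 0.458% at 330 min, against 1.76%, 1.78% and 2.57% at 225 min. The times did not overlap. The called miR-36-3p held 12214 of the family's 15477 reads at 225 min and 2759 of 5254 at 330 min. miR-35-3p was at 384, 54.3 and 198 CPM at 330 min, against 446, 487 and 667 CPM at 225 min (edgeR adjusted p 0.245). miR-39-5p was at 1471 ± 1042 CPM at 330 min and 1306 ± 918 CPM at 225 min, and miR-42-5p at 552 ± 123 and 479 ± 131 CPM (n = 3 each, SD). The fitted values differed between members in size and direction, with 5 arms above 0 and 9 below, but none of those above 0 passed. Among these, the log2 fold change was 0.16 ± 0.63 for miR-39-5p and 0.21 ± 0.66 for miR-42-5p (SE). The difference between members was not tested.

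The cluster of mir-229 and mir-64 to mir-66 accounted for 25.2%, 21.0% and 15.6% of counts at 330 min, against 42.0%, 35.9% and 33.4% at 225 min. Of its 8 tested arms 2 were lower and 6 did not pass, beside 2.34% lower among all arms, with a median of -0.72, and the median was below that of all arms under each of the alternatives where all 8 arms were tested. Its member miR-66-5p was at 3267, 2590 and 2782 CPM at 330 min, against 5676, 5898 and 4877 CPM at 225 min, without overlap (edgeR adjusted p 0.198).

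The mir-44 family had no call among 4 tested arms (median -0.62), beside 9.38% called among all arms. Its share was 5.71% ± 0.698 at 330 min and 11.2% ± 1.45 at 225 min (n = 3 each, SD). Its member miR-61-3p was at 12316, 7269 and 13100 CPM at 330 min, against 18783, 25464 and 17832 CPM at 225 min. These did not overlap, with a log2 fold change of -0.93 ± 0.37 that missed the threshold (edgeR adjusted p 0.131) and was called with DESeq2 size factors (0.00809) or total counts (0.000984). The mir-2 family was alike in this: no call among 6 tested arms (median -0.05), a share of 0.790% ± 0.0837 at 330 min and 1.67% ± 0.0835 at 225 min, and a leading member, miR-43-3p, with a log2 fold change of -1.02 ± 0.43 (edgeR adjusted p 0.162; 0.0298 with DESeq2 size factors, 0.00394 with total counts). miR-2-3p itself was at 1344 ± 897 CPM at 330 min and 1275 ± 382 CPM at 225 min.

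Of 3 further families none had a call, beside 9.38% called among all arms. With 6 or 8 tested arms each, this is no result about the families. In the mir-58 family (insect bantam is its relative), 0 of 8 tested arms passed (median 0.07), and the family took 18.9% ± 4.57 of counts at 330 min and 20.3% ± 4.04 at 225 min (n = 3 each, SD), overlapping between the times. In the mir-72 family, related to miR-31, 0 of 6 passed (median 0.14) and the shares were 13.6% ± 0.869 and 15.3% ± 0.617. In the mir-51 family, which includes relatives of miR-99 and miR-100, 0 of 8 passed (median 0.65) and the shares were 0.710% ± 0.0843 and 0.884% ± 0.0586. miR-52-5p held most of that family, with 4528 ± 463 CPM at 330 min and 5064 ± 86.9 CPM at 225 min, and miR-51-3p had 1029 ± 476 and 1366 ± 59.2 CPM.

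**Figure D4:**
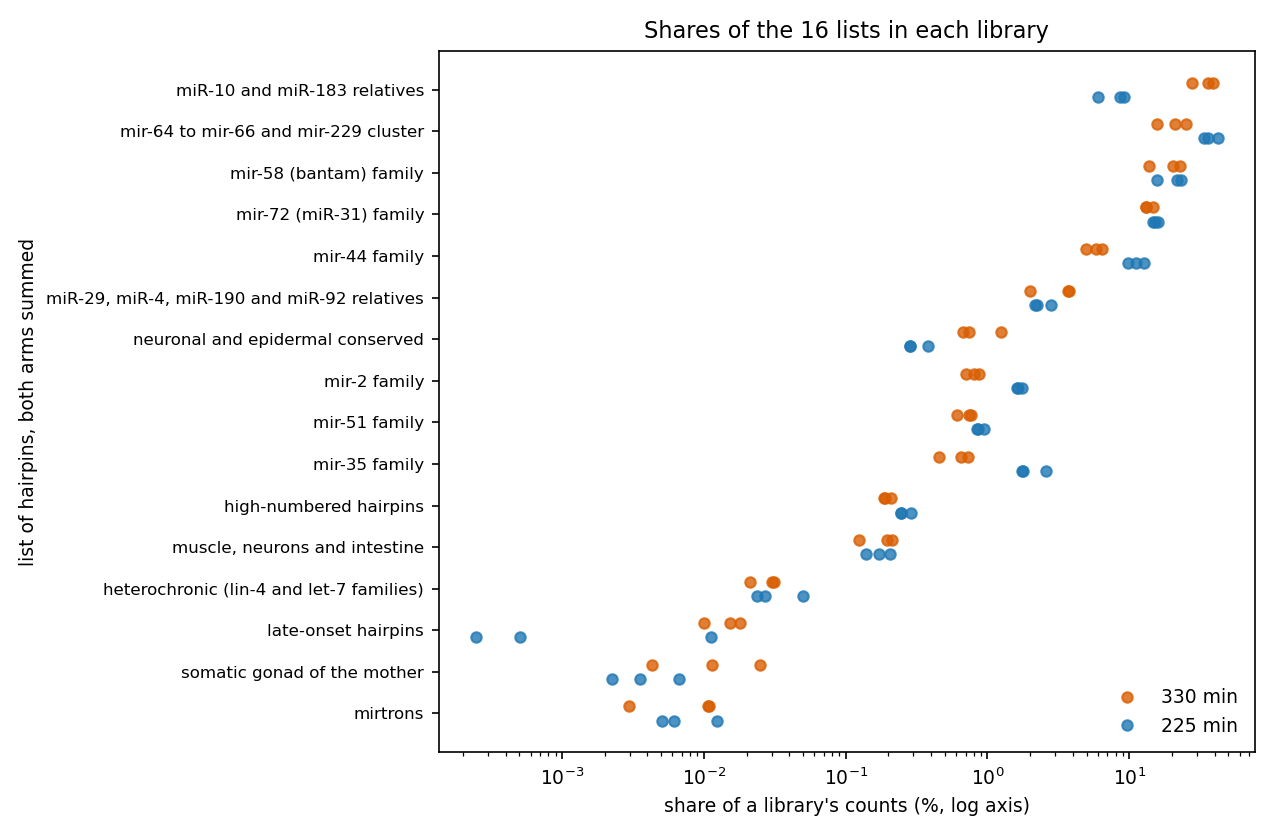
Share of each library's counts (%, log axis) held by 16 lists of hairpins, both arms summed; points are libraries (orange 330 min, drawn above blue 225 min). The times do not overlap for, among others, the miR-10 and miR-183 relatives (27.6% to 38.7% at 330 min, 6.01% to 9.21% at 225 min) and the mir-35 family.

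Among lists with higher arms, that of the miR-10 and miR-183 relatives mir-57 and mir-228 had 2 higher arms of 3 tested (median 2.58), beside 7.03% higher among all 128. It took 34.1% ± 5.76 of counts at 330 min and 7.95% ± 1.71 at 225 min (n = 3 each, SD). This list also holds mir-234, which had no read in the 6 libraries. Of 10 tested arms of conserved neuronal and epidermal miRNAs 2 were higher, miR-87-5p and miR-76-3p, and 8 did not pass (median 1.09), beside 7.03% higher among all arms, with shares of 0.886% ± 0.315 and 0.318% ± 0.0544. Its member miR-67-3p was at 1040 ± 233 CPM at 330 min and 735 ± 43.7 CPM at 225 min and miR-244-5p had 156 reads at 330 min and 15 at 225 min (edgeR FDR-adjusted p 0.825 and 0.174). Of 9 tested arms of miR-29, miR-4, miR-190 and miR-92 relatives 1 was higher, miR-83-5p (median 0.89; 7.03% of all arms were higher), while the abundant miR-235-3p was at 20987 ± 9380 CPM at 330 min and 15082 ± 4602 CPM at 225 min and miR-50-5p at 5285 ± 1920 and 2852 ± 1646 CPM, both overlapping (edgeR FDR-adjusted p 0.790 and 0.296). Of 6 tested arms of hairpins with late onset 2 were higher, miR-790-3p and miR-789-3p (median 4.64), beside 7.03% of all arms; the list was drawn with results of these libraries known, so its direction is no independent evidence. In that list miR-248 had 15 reads at 330 min and 0 at 225 min (edgeR adjusted p 0.131), and miR-242 had 11 and 11.

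Of the 5 tested arms in the list for muscle, neurons and intestine, lsy-6-3p was higher and 4 did not pass (median 0.83), beside 7.03% higher among all arms. Neuronal miR-124-5p had 2, 20 and 55 reads at 330 min, against 0, 0 and 3 at 225 min, a ratio of 23.1 (95% interval 7.61 to 114) that did not pass (edgeR adjusted p 0.105). Together the neuronal hairpins lsy-6 and mir-124 gave 22 to 112 reads in the 330 min libraries and 0 to 4 at 225 min. Muscle and gut miRNAs were present at both times: miR-1-5p was at 931 ± 469 CPM at 330 min and 1065 ± 159 CPM at 225 min, and intestinal miR-60-3p at 425 ± 135 and 238 ± 77.5 CPM (n = 3 each, SD; edgeR adjusted p 0.935 and 0.550).

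Among hairpins numbered mir-1000 and above, 1 of 25 tested arms was higher, miR-1822-5p, and 24 did not pass (median -0.38), a share near the 7.03% of all arms and no result about these hairpins. Their share was 0.195% ± 0.0122 at 330 min and 0.260% ± 0.0253 at 225 min (n = 3 each, SD). The most abundant of them, miR-5546-3p, was at 329 ± 123 CPM at 330 min and 428 ± 37.3 CPM at 225 min, and miR-8196a-3p at 135 ± 96.6 and 222 ± 198 CPM. The sole tested mirtron, miR-1018, was at 73.5 ± 42.2 and 62.0 ± 34.3 CPM. Of the 16 list shares, 9 did not overlap between the times, each with a two-sided exact permutation p of 0.10, the smallest that 3 against 3 libraries allow, and 0.178 after Benjamini-Hochberg adjustment over the 16. On scaled levels, 32.8% of the 128 tested arms did not overlap. Shares also fall where another miRNA takes more of the counts, and miR-57-3p went from 5.55% to 28.4%. For the mir-51 and mir-72 families among the 9, the difference reversed with the 5 most abundant arms out of the denominator.

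Markers of the mother's tissues were scarce at both times. Hairpins of the larva and adult, lin-4, mir-237, let-7, mir-48, mir-84 and mir-241, gave 42 to 80 reads at 330 min and 31 to 38 at 225 min, and 6 of their 12 arms, among them both arms of lin-4 and of mir-84 and let-7-5p, were at 0 in all 6 libraries. In the heterochronic list, which adds mir-795, 0 of 3 tested arms passed (median 0.07), beside 9.38% of all arms. miR-48-5p was at 152 ± 7.16 CPM at 330 min and 148 ± 109 CPM at 225 min and miR-795-5p at 65.3 ± 11.7 and 98.7 ± 38.0 CPM (n = 3 each, SD). Hairpins of the somatic gonad (mir-246, mir-240 and mir-786) gave 23 to 44 reads at 330 min and 2 to 27 at 225 min, of which miR-240-5p gave 92 of 94 at 330 min and 28 of 36 at 225 min (edgeR adjusted p 0.409). The others were 2 reads of miR-246-5p at 330 min and 8 of miR-786-5p in 225 min replicate 3, and 3 of the list's 6 arms were at 0. Its 2 tested arms did not pass (median 2.34), beside 9.38% of all arms that did.

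The arms that led in the table were not always those usually described. miR-57-5p, the strand usually reported for mir-57, had 0 reads in all 24 libraries, beside 309589 reads of miR-57-3p in the 6. miR-1-5p had 1810 reads in the 6 and miR-1-3p, the usual strand of this muscle miRNA, 27, while miR-124-5p had 80 and miR-124-3p 13. For mir-44 the table gave 96862 reads of miR-44-5p in the 6 and none of miR-44-3p, the usual strand. How reads were assigned to arms is not given in the sources used here, so the names 5p and 3p may be exchanged for some hairpins, and the part of this in the results by arm was not tested. With both arms of each hairpin summed, a fit chosen after the data were seen, 10 of 93 hairpins were higher and 2 lower. They included the hairpins of 11 of the 12 arms, mir-64 being the exception (log2 fold change -0.34), and added mir-124 (4.51 ± 1.50, SE; edgeR adjusted p 0.0405). mir-57 then had a log2 fold change of 2.75 ± 0.41, mir-87 of 3.33 ± 0.51, mir-228 of 1.64 ± 0.51, mir-229 of -1.14 ± 0.38 and mir-36 of -2.06 ± 0.51 (SE; edgeR FDR-adjusted p 9.45e-06, 9.45e-06, 0.0254, 0.0392 and 0.00444).

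The balance of the arms within a hairpin needs no scaling between libraries, and in mir-87 it differed between the times. The 5p arm made up 87.2%, 83.9% and 82.8% of mir-87 reads at 330 min, against 48.9%, 50.0% and 55.5% at 225 min. The times lay far apart, with at least 56 reads behind each value. In mir-250 the 5p arm made up 42.4%, 45.9% and 34.3% at 330 min, against 11.9%, 19.0% and 18.3% at 225 min, with at least 79 reads behind each. In mir-229 it made up 34.6%, 55.5% and 70.9% at 330 min, against 21.8%, 19.8% and 40.3% at 225 min, where the times overlapped. In mir-228 the 5p arm held 95.7% ± 0.990 at 330 min and 98.4% ± 0.361 at 225 min (n = 3 each, SD), without overlap. These 4 were picked from 36 hairpins with both arms tested, after their values were seen. The exact permutation p was 0.1 for mir-87, mir-250 and mir-228, the smallest that 3 against 3 libraries allow, and 0.2 for mir-229. It was also 0.1, without overlap, for mir-48 (84.8% ± 9.41 at 330 min, 98.1% ± 3.21 at 225 min), mir-64, mir-74, mir-81 and mir-82. Non-overlap was thus not particular to the hairpins picked, and these p-values were not adjusted for the number of hairpins.

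The libraries of 270 min were not compared in the contrast, although they entered the filter, the scaling and the shared estimate of the spread. For all 12 called arms the mean level at 270 min was between those of 225 and 330 min, as it was for 70 of the 128 tested arms (54.7%). The 12 were picked for a difference between 225 and 330 min, and a mean of 0 at 225 min leaves no room below it. A mean in between is thus largely set by this choice and is a description only. In time order, miR-57-3p averaged 42727, 177533 and 255756 CPM at 225, 270 and 330 min, miR-87-5p 278, 1091 and 4170 CPM, and miR-76-3p 0, 18.1 and 180 CPM. The mean of miR-57-3p at 270 min was nearer to that at 330 min, and the mean of miR-76-3p nearer to that at 225 min. lsy-6-3p averaged 0.644, 3.18 and 114 CPM and miR-790-3p 0, 2.92 and 47.1 CPM. At 270 min the 12 reads of lsy-6-3p and the 11 of miR-790-3p all came from replicate 1, the 270 min library with the most counts (1273548), and the other two libraries held none. miR-229-3p averaged 32974, 12682 and 8337 CPM and miR-36-3p 12663, 3944 and 2667 CPM, with the larger step before 270 min.

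Over all 8 times, as a description, the called arms followed several courses. miR-36-3p was highest at 60 min (41223 ± 15629 CPM) and lowest at 500 min (301 ± 115 CPM), and miR-229-3p was highest at 120 min (121433 ± 60004 CPM). miR-57-3p was highest at 410 min (404051 ± 73002 CPM), as were miR-87-5p, miR-228-3p, lsy-6-3p and miR-83-5p. miR-76-3p, miR-789-3p and miR-790-3p were highest at 500 min, at 1247 ± 84.8, 4845 ± 1186 and 975 ± 248 CPM, while miR-1822-5p was highest at 330 min (n = 3 each, SD). The courses before 225 min differed too: miR-87-5p stood at 1463 ± 317 CPM at 60 min and miR-789-3p at 94.0 ± 90.2 CPM, above their 225 min means of 278 and 1.22 CPM, and miR-228-3p reached 939 ± 489 CPM at 180 min. For these 3 the mean at 225 min was below an earlier one.

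**Figure D5:**
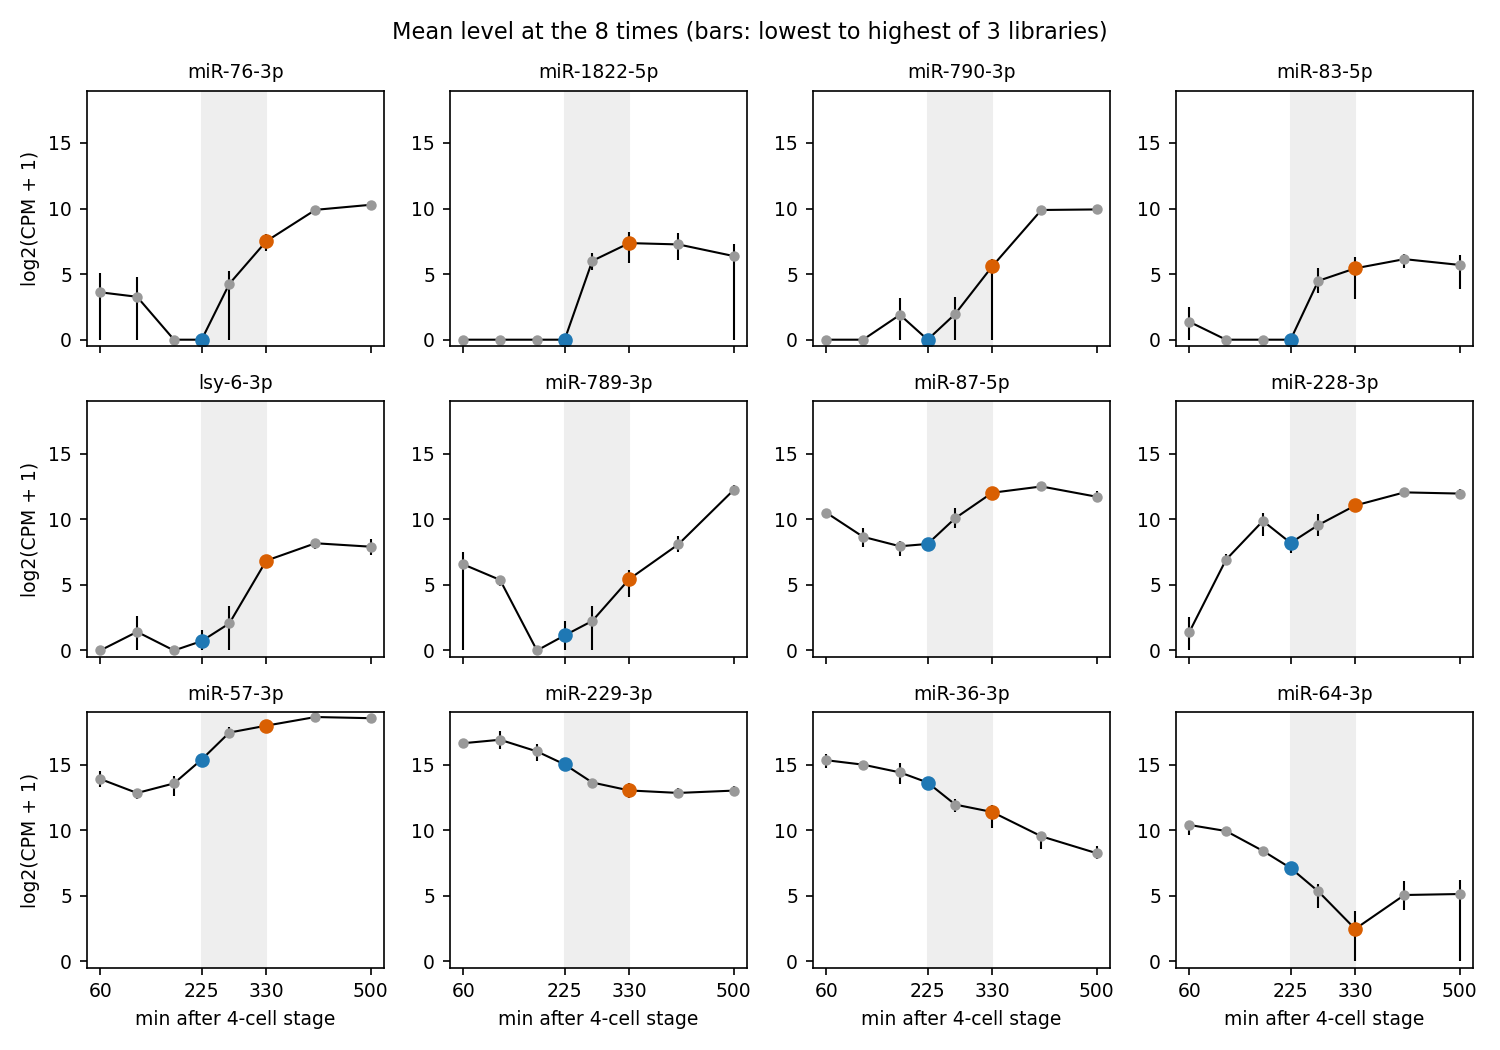
Mean level at the 8 times, as log2(CPM + 1), for the 12 called arms; vertical bars run from the lowest to the highest of 3 libraries, blue marks 225 min, orange 330 min, and the grey band the span between. miR-76-3p, miR-1822-5p, miR-790-3p and miR-83-5p are at 0 at 225 min, and the mean of miR-36-3p is lower at each later time.

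Among the 76 arms with reads that were too scarce to test, none had more than 20 reads in the 6 libraries together. Of these, 21 had reads at 330 min only and 34 at 225 min only. miR-4809-3p had 18 reads at 330 min and 2 at 225 min. Those with no read at 225 min included miR-8203-3p (19 reads at 330 min) and miR-54-5p (13 reads). Those with no read at 330 min included miR-8190-3p (12 reads at 225 min), miR-2209b-3p and miR-5551-5p (11 reads each).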

How the data were processed

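Small RNA was sequenced from 24 pooled-embryo libraries, and the values deposited by the authors are raw counts of reads per mature miRNA arm, with no normalization. Bowtie and HTSeq are named, per the submitters' processing notes. No version of either, no build, no annotation of miRNAs, and neither the use of strand nor the treatment of reads with several matches is stated in the sources used here, and near-identical family members may share reads.

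Libraries were assigned to times from the labels, and 0 value columns were left unused. The counts of all 24 libraries were fitted with time as factor in edgeR 4.0.16 (R 4.3.3; filterByExpr with a minimum count of 10, TMM factors, robust quasi-likelihood F-test), and the 330 min minus 225 min contrast was adjusted by Benjamini-Hochberg over all 128 tested arms at 0.05. All 8 times thus share 1 estimate of the spread (common biological coefficient of variation 0.706). Each SE is the size of the log2 fold change divided by the root of F. CPM uses TMM-scaled library sizes, and shares use all counts of a library. A 225 min sum of 0 was set to 3 counts over the 3 libraries for a bound, and ratios of scarce arms have exact conditional binomial intervals of 95%. Counts limit precision as given by the value of 1 read in each library.

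Arms named were the 10 most abundant, those past the threshold, and in each list up to 2 abundant arms that did not pass; a few others were chosen after their values were seen. The comparison and the lists were chosen with earlier results of these data known. The script was tested on simulated data. Replicate numbers did not pair the samples. Alternatives were other scalings, no filter, DESeq2 1.42.0, the 6 libraries alone, a replicate block, removal of 5 abundant arms or of 1 library, and, added after the data were seen, summed arms. Hairpin positions are from Ensembl release 115 (WBcel235), where 146 of 151 hairpins matched by name.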

Additional observations from a re-analysis of the deposited data

How the results depend on the processing

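The 12 called arms kept their direction in all 224 alternative values run for them, and 20 of these values lost the call: miR-83-5p lost it in 10 (among them without the filter, adjusted p 0.103), miR-789-3p in 7 and miR-790-3p in 3. The 224 hold no value for these 3 arms with only the 6 libraries, where they did not pass the filter. They also hold none for miR-57-3p in the fit that removed it by construction. The count of 12 arms (9 higher, 3 lower) became 21 with total counts (11 lower), 21 with DESeq2 (10 lower) and 23 of 80 tested arms with only the 6 libraries (15 higher, 8 lower). The lower arms became 6 with DESeq2 size factors. With the replicate block 15 arms were called, 5 of them lower. Deviations of 330 and 225 min libraries with the same number correlated at -0.09, -0.16 and -0.03, and no library correlated best with its own number. Whether libraries with the same number share a batch was not tested. Leaving out 1 library gave 9 to 12 arms, 6 to 9 of them higher and 3 lower, and no filter gave 12 of 297 arms. Without the 5 most abundant arms, miR-57-3p among them, 10 of 122 were called. The cause of these changes was not tested, beyond the arms or libraries removed by construction.

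Among abundant arms that were not called, the log2 fold change reversed with total counts for miR-72-5p (-0.085), miR-73-3p (-0.12), miR-81-3p (-0.11) and miR-82-3p (-0.12), and without 1 library, arms and factors kept, it ran from -0.032 to 0.25, -0.072 to 0.39, -0.23 to 0.38 and -0.11 to 0.46 in the same order. With filter and factors computed anew without 225 min replicate 2, miR-72-5p was at -0.019 and miR-73-3p at -0.044. Of the 16 list shares, 10 kept their direction. With the 5 most abundant arms left out of the denominator, the 330 minus 225 min difference reversed to 0.0573 percentage points for the mir-51 family, 3.91 for mir-58, 0.418 for mir-72 and 0.00533 for the heterochronic list. Without 1 library it ran from -3.71 to 1.13 for mir-58, -0.0108 to 0.00224 for the heterochronic list, -0.0127 to 0.0308 for muscle, neurons and intestine, and -0.00109 to 0.00294 for the mirtrons.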
